A study of Mus musculus with 15 samples.

Results

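The genes described here encode the enzymes that clear superoxide and peroxides in red cell precursors: Cat, Sod1, Sod2, Gpx1, Gpx4, Prdx1, Prdx2, Prdx3, Prdx6 and Txnrd1. They were listed by symbol from known function, with earlier results of these data already known. Of the 10, 9 were measured, among 19938 genes measured in all. Prdx6 had no probe set assigned to it in the platform annotation and has no value here. Superoxide dismutases turn superoxide into hydrogen peroxide, which catalase, the glutathione peroxidases and the peroxiredoxins then reduce. Thioredoxin reductase spends NADPH to keep the thioredoxin that serves many peroxiredoxins in its reduced form. Red cells carry oxygen bound to haem iron, a steady source of superoxide, and Prdx2, Cat and Gpx1 are known as the main peroxide-removing enzymes of the mature mouse red cell.

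RNA from FVB/NJ mouse fetal liver was measured on Affymetrix MoGene 1.0 ST arrays at E14.5 (embryonic day), when the liver is the main site of red cell formation. Embryos were labelled Klf3 KO (knockout) or WT (wild type); Klf3 is a DNA-binding factor of the Krüppel-like family that binds CACCC boxes. TER119 is a surface antigen that red cell precursors gain as they mature, and magnetic beads against it were used to obtain a TER119+ and a TER119- population. There were 3 arrays of KO TER119+ cells, 4 of WT TER119+ cells, 4 of KO TER119- cells and 4 of WT TER119- cells. TER119- cells were those left after a depletion column and TER119+ cells those kept on a selection column, so the populations differ also in how they were handled. Which part of Klf3 was deleted is not in the labels. Nor do they tie each replicate to its own embryo, so the p-values reflect only how far these samples spread, which may be technical. In the arrays of TER119+ cells the Klf3 probe set averaged 10.47 ± 0.11 in KO and 10.22 ± 0.26 in WT (log2, SD, n = 3 and 4, adjusted p = 0.9998), and in TER119- cells 8.34 ± 0.34 in KO and 8.38 ± 0.37 in WT (n = 4 each, adjusted p = 0.947). It therefore did not separate the genotypes, and the samples are called KO as their label has it. Klf8, a related factor, did separate them: it was higher by 3.06 in KO TER119+ cells (adjusted p = 1.643e-10) and by 0.75 in KO TER119- cells (adjusted p = 0.0148). Levels below are log2 intensities that the authors had already normalised by RMA, per the submitters' processing notes, so a difference of 1 is a doubling. Tests were moderated ones from limma, adjusted by Benjamini and Hochberg's method over all 19938 genes, and a gene was called where the adjusted p was under 0.05.

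The upstream promoter sequences of 4 members are shown because Klf3 binds CACCC boxes. Cat, Prdx2 and Prdx3 are among the 7 members that were higher in TER119+ cells, and Sod1 was lower. The 4 sequences shown do not stand for all members. Each is the 250 bases before the RefSeq transcription start on GRCm38.p6, written 5′ to 3′ along the gene. The windows are chr2:103485154-103485403 on the minus strand for Cat, chr8:84969372-84969621 on the plus strand for Prdx2, chr19:60874539-60874788 on the minus strand for Prdx3 and chr16:90220512-90220761 on the plus strand for Sod1. Capitals mark matches, on either strand, to the motifs searched. One was CACCC. Another was TGACNNNGC, the core of the element bound by NRF2 and its small MAF partners. AGATAA is a form of the motif that GATA factors bind. A close variant of it, TGATAA, was searched as well.
Cat: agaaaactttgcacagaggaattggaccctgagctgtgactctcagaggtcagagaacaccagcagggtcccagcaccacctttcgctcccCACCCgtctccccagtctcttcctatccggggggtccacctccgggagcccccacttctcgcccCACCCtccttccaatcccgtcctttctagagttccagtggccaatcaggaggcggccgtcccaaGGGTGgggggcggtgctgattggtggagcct
Prdx2: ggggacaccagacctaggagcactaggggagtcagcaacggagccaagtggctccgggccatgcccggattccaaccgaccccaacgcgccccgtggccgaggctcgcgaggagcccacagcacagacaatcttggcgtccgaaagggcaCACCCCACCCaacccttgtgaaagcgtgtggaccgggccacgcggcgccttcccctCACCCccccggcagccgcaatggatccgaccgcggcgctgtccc
Prdx3: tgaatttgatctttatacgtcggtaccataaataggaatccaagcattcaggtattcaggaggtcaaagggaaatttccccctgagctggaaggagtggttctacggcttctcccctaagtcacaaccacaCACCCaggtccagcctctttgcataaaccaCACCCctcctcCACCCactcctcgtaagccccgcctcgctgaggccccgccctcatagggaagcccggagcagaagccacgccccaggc
Sod1: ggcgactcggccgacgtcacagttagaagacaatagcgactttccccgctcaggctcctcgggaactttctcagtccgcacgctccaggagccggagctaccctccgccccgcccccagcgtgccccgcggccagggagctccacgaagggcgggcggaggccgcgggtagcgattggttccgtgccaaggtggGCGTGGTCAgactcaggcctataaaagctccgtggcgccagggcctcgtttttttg

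Cat, Prdx2 and Prdx3 each held 3 CACCC matches in this window, and Sod1 held none but had 1 match to TGACNNNGC. No window of another measured member held as many CACCC matches as those of Cat, Prdx2 and Prdx3. Of the members not shown, Sod2 and Gpx1, also higher in TER119+ cells, held 0 matches, and Prdx1, which did not pass, held 2. RefSeq gave 14 such windows for the 9 measured genes, since Gpx4 has 4 (of which 2 overlap) and Txnrd1 has 3. CACCC matched in 7 of the 14 windows, from 6 genes, where 52.0% of all 32851 mouse promoter windows of this length held it. TGACNNNGC matched in 3 windows, from Sod1, Prdx1 and Txnrd1, against 10.2% of all windows. TGATAA matched in 2 windows, against 7.94% of all. These are the overlapping windows of Gpx4, and the match is the same site in both. AGATAA matched in 0 windows, against 9.99%. These are matches of letters and say nothing of binding.

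Most of the antioxidant enzyme genes were higher in TER119+ cells than in TER119- cells, whichever genotype was compared. In KO livers 7 of the 9 measured genes were higher in TER119+ cells (Cat, Sod2, Gpx1, Gpx4, Prdx2, Prdx3 and Txnrd1), Sod1 was lower and Prdx1 did not pass the test. In WT livers the same 7 were higher, Sod1 was again lower and Prdx1 again did not pass, and the arrays of these 2 comparisons are separate. The background was broad: of all genes, 22.6% were higher and 26.5% lower in KO TER119+ cells, and 23.5% were higher and 29.1% lower in WT TER119+ cells. The median difference over the members was 1.17 in KO and 1.25 in WT livers, and over all genes -0.06 in KO and -0.09 in WT livers. The TER119+ and TER119- arrays of KO did not overlap for 9 of 9 members, where 56.1% of all genes did not, and those of WT did not overlap for 8 of 9, where 45.6% did not.

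**Figure D1:**
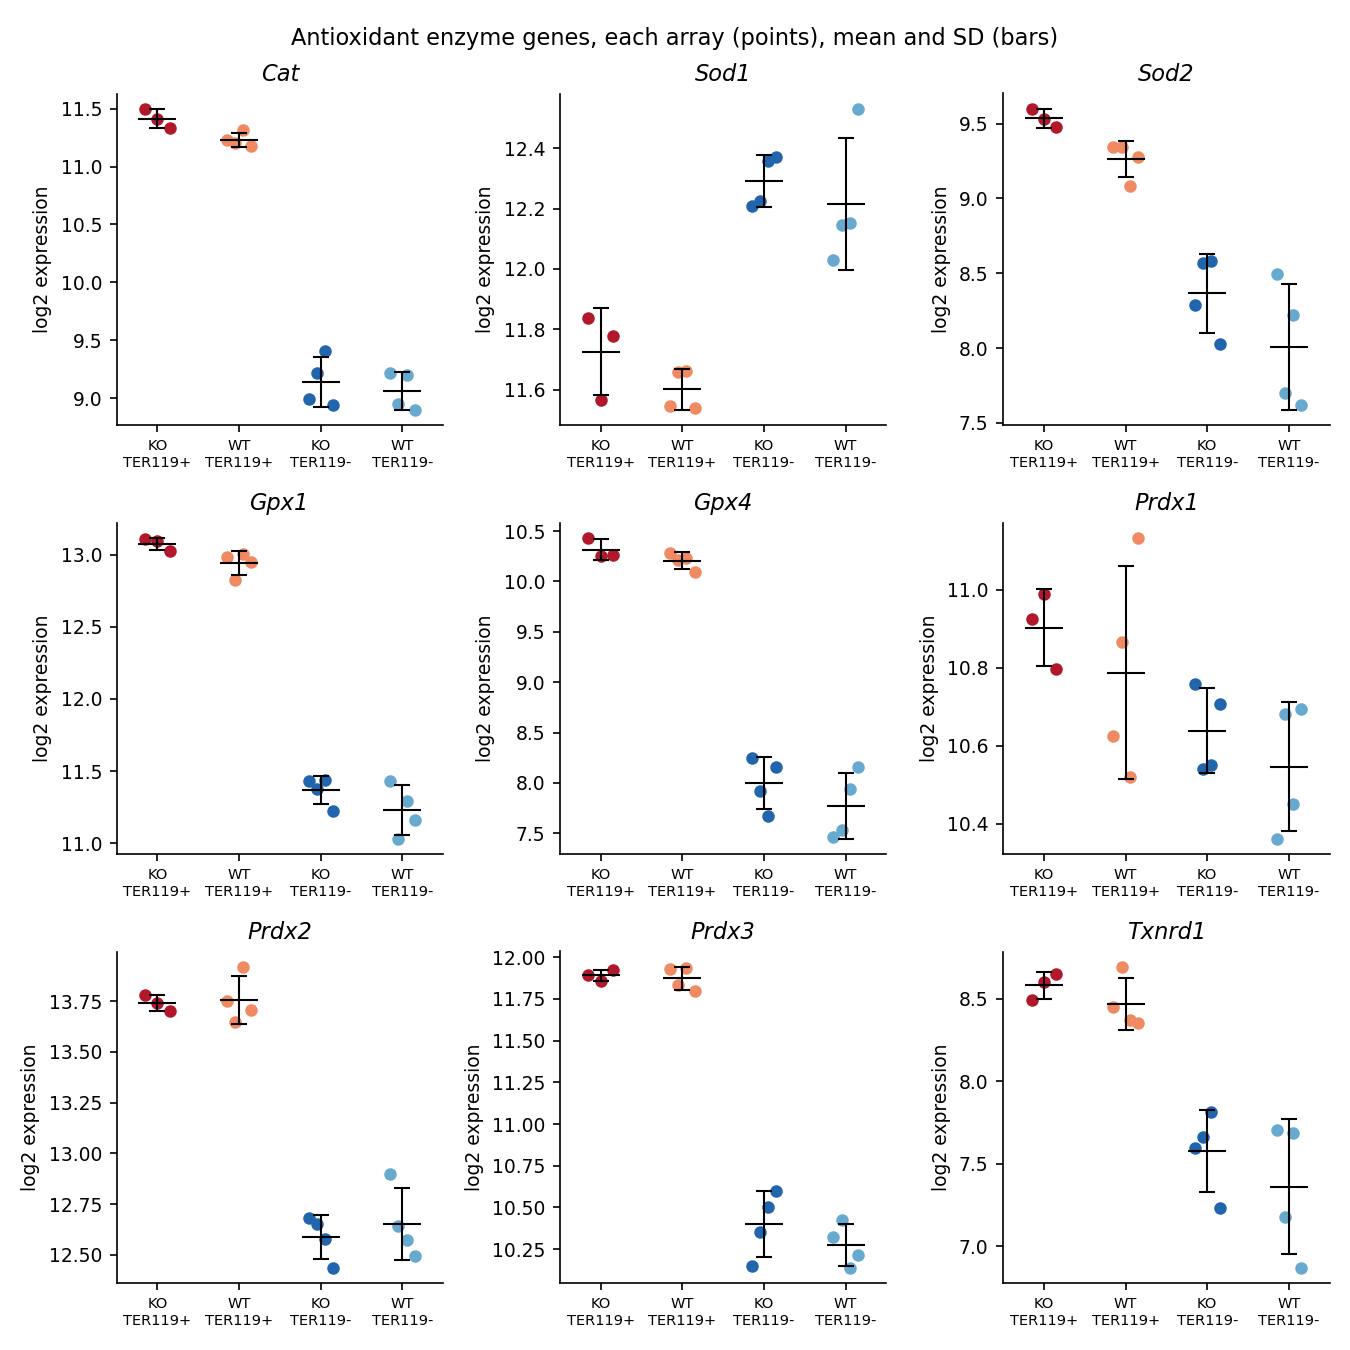
Log2 expression of each measured antioxidant enzyme gene in each of the 15 arrays (points) with group mean and SD (bars), in KO TER119+, WT TER119+, KO TER119- and WT TER119- cells; each panel has its own axis. TER119+ arrays sit above TER119- arrays for 7 genes and below them for Sod1, and Prdx1 has overlapping WT groups.

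Catalase, encoded by Cat, breaks down hydrogen peroxide to water and oxygen. In TER119+ cells its level was 11.50, 11.41 and 11.33 in the KO arrays and 11.23, 11.20, 11.32 and 11.18 in the WT arrays. In TER119- cells it was 8.99, 9.21, 9.41 and 8.94 in KO and 9.21, 8.95, 9.20 and 8.90 in WT. Every TER119+ array lay above every TER119- array. The difference between TER119+ and TER119- cells was 2.28 in KO livers (4.85-fold, SE 0.12, adjusted p = 1.405e-10) and 2.17 in WT livers (4.49-fold, SE 0.11, adjusted p = 8.34e-11).

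Gpx1 encodes the cytosolic glutathione peroxidase, a selenoprotein that reduces hydrogen peroxide, and Gpx4 the glutathione peroxidase that reduces lipid hydroperoxides in membranes. For Gpx1 the TER119+ arrays read 13.11, 13.10 and 13.03 in KO and 12.99, 12.83, 13.01 and 12.95 in WT. The TER119- arrays read 11.43, 11.38, 11.44 and 11.22 in KO and 11.43, 11.03, 11.29 and 11.16 in WT. The populations were separated by a wide gap and the TER119+ arrays were tightly grouped. Gpx1 was higher in TER119+ cells by 1.71 in KO (3.27-fold, SE 0.10, adjusted p = 6.434e-10) and by 1.72 in WT (3.28-fold, SE 0.10, adjusted p = 2.095e-10). Gpx4 had the largest population difference among the members in WT. Its TER119+ arrays read 10.44, 10.25 and 10.26 in KO and 10.29, 10.21, 10.24 and 10.10 in WT. Its TER119- arrays read 8.25, 7.92, 7.68 and 8.16 in KO and 7.47, 7.54, 7.94 and 8.15 in WT. The groups again did not overlap, and the spread was wider among TER119- arrays. The difference was 2.31 in KO (4.97-fold, SE 0.16, adjusted p = 3.695e-09) and 2.43 in WT (5.40-fold, SE 0.15, adjusted p = 7.028e-10). In KO this was close to the 2.28 of Cat, and without KO TER119- replicate 3 Gpx4 was at 2.20 and Cat at 2.37. A second probe set assigned to Gpx4 gave 2.67 in KO and 2.76 in WT.

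The peroxiredoxins reduce peroxides with the help of thioredoxin, and Prdx2 and Prdx3 passed the test between the populations while Prdx1 did not. Prdx2, an abundant cytosolic protein of red cells, read 13.78, 13.74 and 13.70 in KO TER119+ cells and 13.75, 13.65, 13.92 and 13.70 in WT TER119+ cells. It read 12.68, 12.65, 12.58 and 12.44 in KO TER119- cells and 12.90, 12.64, 12.58 and 12.49 in WT TER119- cells. All 7 TER119+ arrays lay above all 8 TER119- arrays. The difference was 1.15 in KO (2.22-fold, SE 0.11, adjusted p = 1.328e-07) and 1.10 in WT (2.15-fold, SE 0.10, adjusted p = 8.156e-08). The probe set used reads near the top of the scale of these arrays, whose highest value was 14.26. A second probe set assigned to Prdx2 gave a smaller difference, 0.59 in KO and 0.61 in WT, also past the threshold. The annotation used does not say which of the probe sets of Gpx4, Prdx1 or Prdx2 lies at the gene itself, and signal from near-identical copies cannot be told apart.

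Prdx3 encodes the mitochondrial peroxiredoxin. Its TER119+ arrays read 11.89, 11.86 and 11.92 in KO and 11.93, 11.83, 11.94 and 11.80 in WT. Its TER119- arrays read 10.15, 10.35, 10.50 and 10.60 in KO and 10.32, 10.43, 10.14 and 10.22 in WT. The TER119+ arrays of both genotypes lay in a narrow band above all TER119- arrays. The difference was 1.49 in KO (2.81-fold, SE 0.11, adjusted p = 6.981e-09) and 1.60 in WT (3.03-fold, SE 0.10, adjusted p = 1.054e-09). Prdx1, the other main cytosolic peroxiredoxin, showed no such gap. Its TER119+ arrays read 10.92, 10.99 and 10.80 in KO and 10.62, 10.87, 10.52 and 11.13 in WT. Its TER119- arrays read 10.76, 10.54, 10.55 and 10.71 in KO and 10.36, 10.68, 10.45 and 10.69 in WT. The KO populations did not overlap, by a narrow margin, and the WT populations did. The difference was 0.26 in KO (95% interval -0.03 to 0.55, adjusted p = 0.126) and 0.24 in WT (-0.03 to 0.51, adjusted p = 0.124), and both intervals include 0. The second probe set of Prdx1 gave 0.15 in KO and 0.16 in WT.

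The superoxide dismutases went in opposite directions. Sod2 encodes the manganese enzyme of mitochondria, and its TER119+ arrays read 9.60, 9.53 and 9.47 in KO and 9.34, 9.34, 9.09 and 9.27 in WT. The TER119- arrays read 8.29, 8.57, 8.58 and 8.03 in KO and 8.50, 7.70, 8.22 and 7.62 in WT. No TER119- array reached the lowest TER119+ array, although the WT TER119- arrays were spread over almost 1 unit. Sod2 was higher in TER119+ cells by 1.17 in KO (2.25-fold, SE 0.19, adjusted p = 4.974e-05) and by 1.25 in WT (2.38-fold, SE 0.17, adjusted p = 1.005e-05). Sod1 encodes the copper-zinc enzyme of the cytosol. Its TER119+ arrays read 11.84, 11.56 and 11.78 in KO and 11.54, 11.66, 11.66 and 11.54 in WT. Its TER119- arrays read 12.21, 12.23, 12.36 and 12.37 in KO and 12.03, 12.15, 12.15 and 12.53 in WT. Here every TER119+ array lay below every TER119- array. Sod1 fell by 0.56 in TER119+ cells of KO (SE 0.12, adjusted p = 0.000594) and by 0.61 in those of WT (1.53-fold lower, SE 0.11, adjusted p = 0.00013).

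Txnrd1 encodes the cytosolic thioredoxin reductase, a selenoprotein. It read 8.49, 8.60 and 8.65 in KO TER119+ cells and 8.45, 8.70, 8.37 and 8.35 in WT TER119+ cells. It read 7.59, 7.66, 7.82 and 7.23 in KO TER119- cells and 7.70, 7.18, 7.69 and 6.87 in WT TER119- cells. The populations did not overlap in either genotype. The difference was 1.01 in KO (2.01-fold, SE 0.18, adjusted p = 0.000198) and 1.11 in WT (2.16-fold, SE 0.17, adjusted p = 3.354e-05).

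**Figure D2:**
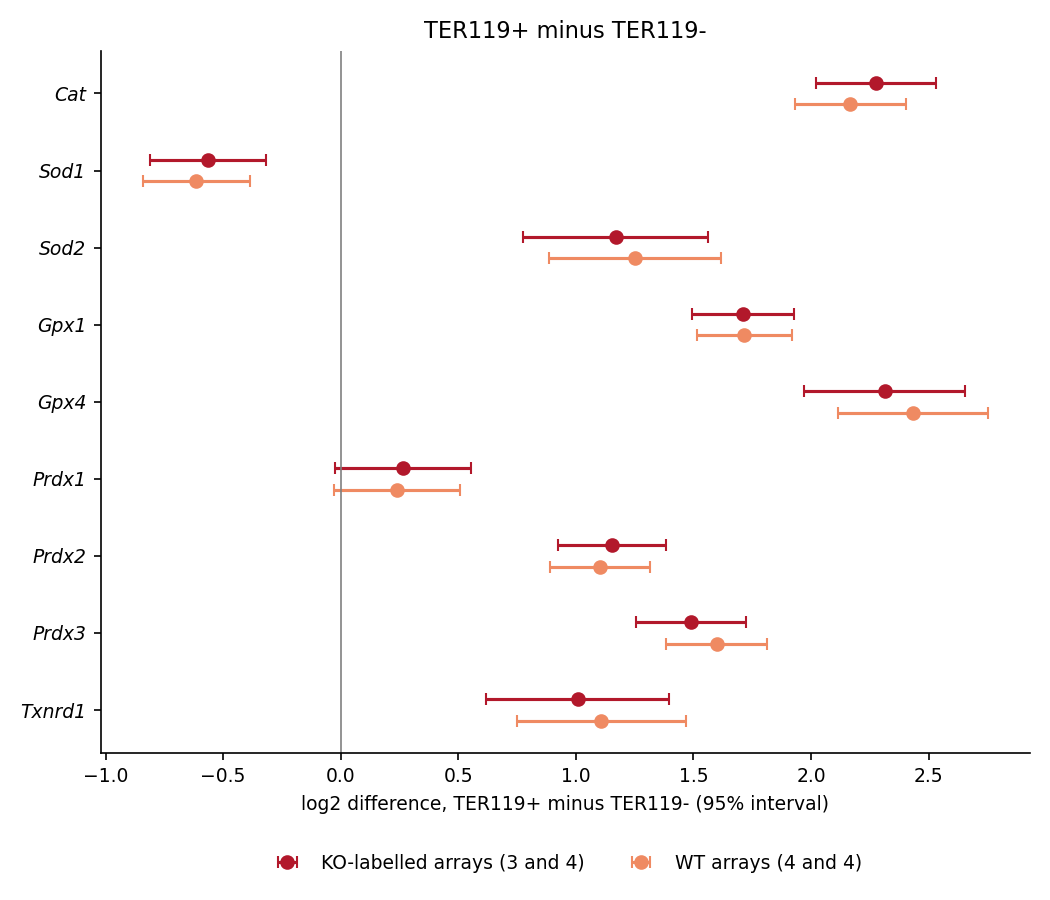
Difference in log2 expression, TER119+ minus TER119-, with its 95% interval, for each measured antioxidant enzyme gene in KO-labelled and WT arrays. Cat and Gpx4 lie above 2 in both genotypes, Sod1 lies below 0, and the intervals of Prdx1 include 0.

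Most marker lists of other cells moved with the same contrast. The megakaryocyte and platelet list was mixed: 2 of its 6 genes were higher in TER119+ cells of each genotype. In KO 2 were lower and in WT 0 were. Its median difference was -0.63 in KO and -0.21 in WT. Late red cell precursor genes had a mean of 11.19 in KO TER119+ and 11.16 in WT TER119+ arrays, against 7.79 in KO TER119- and 7.36 in WT TER119- arrays, and 9 of 9 were higher in WT TER119+ cells. Hepatocyte genes averaged 11.81 in KO TER119+ and 11.74 in WT TER119+ arrays, against 6.79 in KO TER119- and 7.70 in WT TER119- arrays. All 11 measured hepatocyte genes were higher in TER119+ cells of WT, with a median difference of 3.70, as were 9 of 10 macrophage genes and 9 of 10 endothelial and stromal genes. Stem and progenitor genes averaged 5.88 in KO TER119+ and 5.94 in WT TER119+ arrays, against 8.002 in KO TER119- and 8.06 in WT TER119- arrays. Hepatocytes and macrophages also express catalase and glutathione peroxidases, and the part of these cells in the higher levels was not tested. In such bulk samples fewer cells of a type and less RNA per cell cannot be told apart. Among the TER119- arrays, KO replicate 3 had the lowest hepatocyte mean, 6.03, and the highest late red cell mean, 8.11, while WT replicate 4 had the highest hepatocyte mean, 8.87, and the lowest late red cell mean, 7.01. The members did not order these arrays alike. KO replicate 3 was the highest TER119- array for 4 of the 9 members (Cat, Sod2, Gpx1 and Txnrd1) but the lowest KO one for Gpx4, at 7.68. WT replicate 4 was the lowest TER119- array for 3 of the 9 (Cat, Sod2 and Txnrd1), the highest for Sod1, and the highest WT one for Gpx4, at 8.15.

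**Figure D3:**
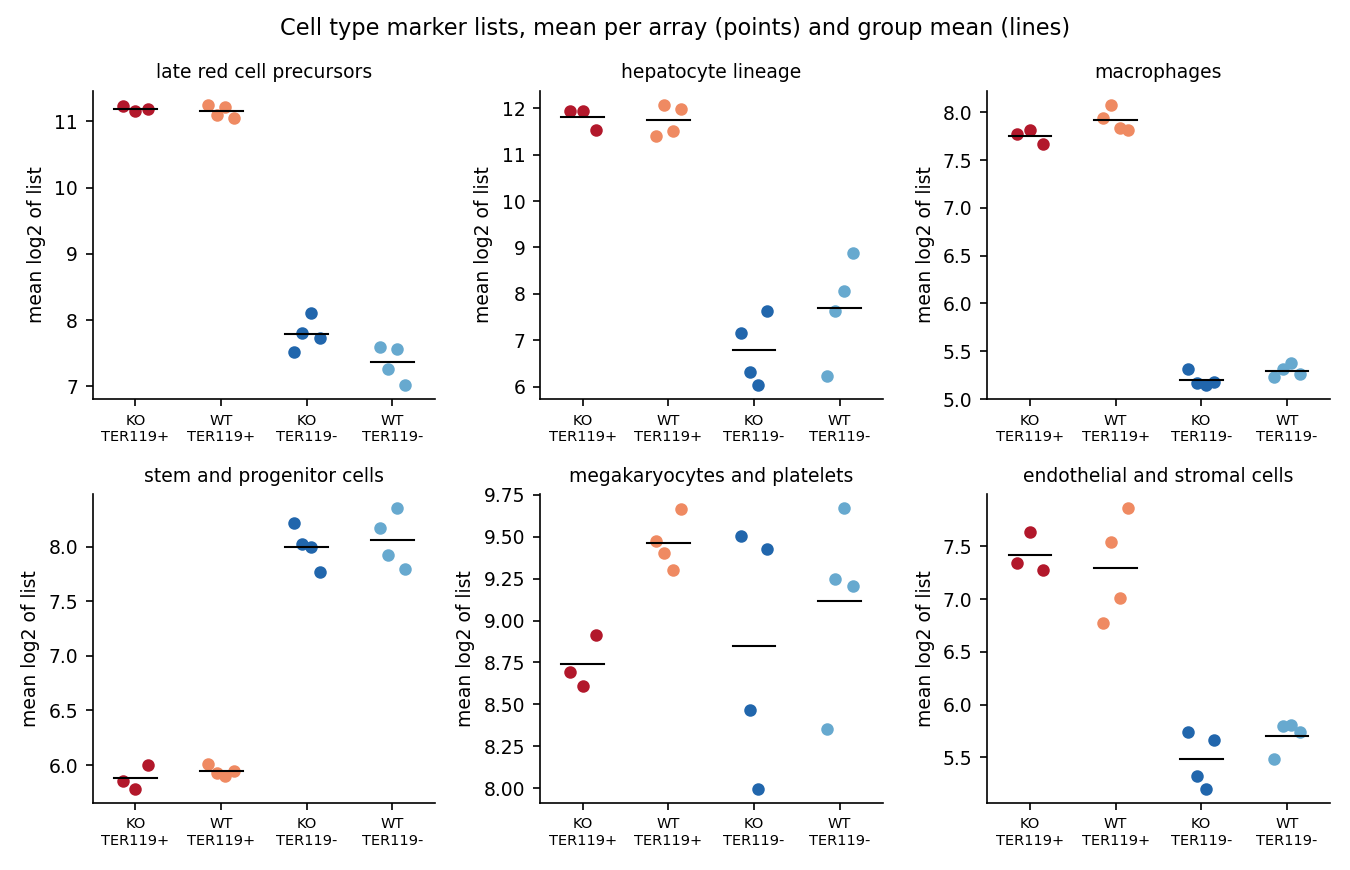
Mean log2 level of each cell type marker list in each array (points) and the group mean (lines), for KO TER119+, WT TER119+, KO TER119- and WT TER119- cells. Late red cell, hepatocyte, macrophage and endothelial lists are higher in TER119+ arrays, and the stem and progenitor list is lower. The megakaryocyte and platelet list overlaps between the populations.

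No antioxidant enzyme gene passed the test between KO and WT. In TER119+ cells 0 of 9 were called by limma, against 1.02% of all genes, and 0 of 9 had an unadjusted p under 0.05, as 1062 of all genes did. In TER119- cells 0 of 9 were called, against 0.0853% of all genes, and 0 of 9 had an unadjusted p under 0.05, as 1508 of all genes did. The estimates were small and mostly positive: 8 of 9 were above 0 in each population, with a median of 0.12 in both, against -0.01 over all genes in TER119+ and -0.02 in TER119- cells. The 95% intervals ran at most between -0.27 and 0.67 in TER119+ cells and between -0.28 and 0.72 in TER119- cells.

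The KO TER119+ arrays lay wholly above the WT TER119+ arrays for 3 of 9 members, Cat, Sod2 and Gpx1, where the groups did not overlap for 10.1% of all genes. For Cat the lowest KO array was 11.33 and the highest WT array 11.32, a difference of 0.18 between the means (SE 0.12, adjusted p = 0.9998). Sod2 differed by 0.27 (SE 0.19, adjusted p = 0.9998) and Gpx1 by 0.13 (SE 0.10, adjusted p = 0.9998). Prdx2 and Prdx3, the red cell and mitochondrial peroxiredoxins, differed by -0.02 and 0.02. The second probe set of Prdx2 gave 0.26 in TER119+ cells and 0.29 in TER119- cells, not past the threshold in either. Megakaryocyte and platelet markers averaged 8.74 in KO TER119+ and 9.46 in WT TER119+ arrays, with 0 of 6 called. Of 10 macrophage markers, 1 was called, lower in KO TER119+ cells. The part of these markers in the member values was not tested. In TER119- cells the KO and WT arrays overlapped for all 9 members, where 2.63% of all genes did not overlap. The largest estimate there was that of Sod2, which averaged 8.37 ± 0.26 in KO and 8.01 ± 0.42 in WT (SD, n = 4 each), a difference of 0.36 (95% interval -0.01 to 0.72, adjusted p = 0.655). The arrays behind that estimate differed in their cell markers: late red cell genes had a median difference of 0.41 between KO and WT TER119- arrays, with 9 of 9 positive, and hepatocyte genes -0.95, with 0 of 11 positive, none of them past the threshold. The array sexes, inferred from sex-linked genes, differed too, with 1 male and 3 female arrays in KO TER119- and 4 male arrays in WT TER119-. The part of these differences in the Sod2 value cannot be told from these arrays. The Sod2 difference was 0.41 with sex as a factor, 0.11 with the hepatocyte mean as a covariate, and 0.12 without the 3 TER119- arrays that stand apart (KO replicate 4 and WT replicates 2 and 4), and did not pass in any of these fits.

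**Figure D4:**
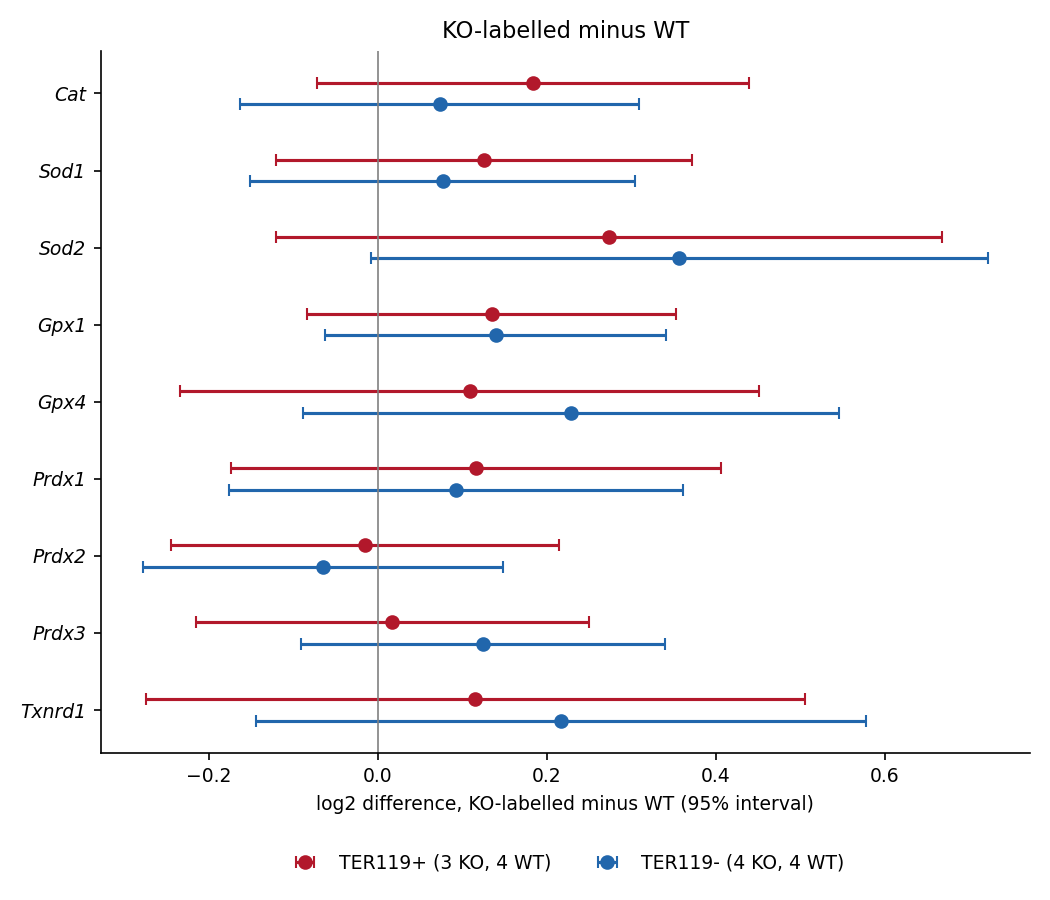
Difference in log2 expression, KO-labelled minus WT, with its 95% interval, for each measured antioxidant enzyme gene in TER119+ and TER119- cells. All 18 intervals include 0, and Sod2 has the largest estimate in both populations.

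Whether the KO to WT difference itself differed between the populations was tested as an interaction, which was called for 0 of 9 members, against 0.436% of all genes. Its estimates lay between -0.12 for Gpx4 and 0.11 for Cat, with intervals at most from -0.63 to 0.46.

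The enzymes above work with partner genes that supply thioredoxin, glutathione, NADPH, selenium and transcriptional control, and 55 of 57 such genes were measured, Prdx5 and G6pdx being without a value. In KO livers 33 of the 55 were higher in TER119+ cells, 6 were lower and 16 did not pass, with a median difference of 0.59. In WT livers 33 were higher, 7 lower and 15 did not pass, with a median of 0.67. These counts, and those of the lists below, stand against the same background as the members: 22.6% of all genes higher and 26.5% lower in KO, and 23.5% higher and 29.1% lower in WT. The highest was Hmox1, which encodes the haem-degrading enzyme haem oxygenase. Its mean was 10.85 ± 0.12 in KO TER119+ and 10.58 ± 0.06 in WT TER119+ cells, against 5.64 ± 0.25 in KO TER119- and 5.50 ± 0.39 in WT TER119- cells (SD). Hmox1 is also abundant in macrophages, whose marker genes averaged 7.76 in KO TER119+ and 7.92 in WT TER119+ arrays, against 5.20 in KO TER119- and 5.30 in WT TER119- arrays, and their part in the Hmox1 difference was not tested.

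Among the regulators of antioxidant genes that passed, only Nfe2l2 was lower in TER119+ cells. Nfe2l2, which encodes NRF2, the main activator of the antioxidant response, differed by -1.26 in KO and by -1.24 in WT, being lower in TER119+ cells of both (adjusted p = 1.424e-07 and 6.171e-08). Mafk, a small MAF partner of NRF2 and BACH1, was higher by 2.74 in KO and 2.85 in WT. Bach1, which encodes a haem-sensing repressor at the same elements, was higher by 2.36 in KO and 2.32 in WT, and Keap1, whose product marks NRF2 for degradation, by 0.66 in KO and 0.75 in WT. Foxo3, a factor that activates antioxidant genes in red cell precursors, was higher by 2.42 in KO and 2.47 in WT. Of the 9 genes in the list of regulators and NRF2 targets, 7 were higher and 1 lower in each genotype. The list includes the target genes Hmox1 and Nqo1, both among the 7.

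Among the thioredoxin partners 5 of 10 were higher in KO TER119+ cells and 6 of 10 in WT TER119+ cells, with 1 lower in each. Txnrd2, the mitochondrial thioredoxin reductase, was higher by 3.78 in KO and 4.07 in WT. Txn1, the cytosolic thioredoxin, differed by -0.09 in KO and -0.13 in WT and did not pass in either. Of the 19 glutathione genes 12 were higher and 2 lower in KO, and 10 were higher and 3 lower in WT. Those that make glutathione were all higher: Gclc and Gclm, the subunits of the first enzyme of the pathway, by 1.26 and 1.44 in KO, with Gclm at 1.71 in WT and Gclc past the threshold there too, and Gss, the enzyme of the last step, by 2.04 in KO and 1.81 in WT. Slc7a11, the cystine importer, was lower, at -0.93 in KO and -1.05 in WT. It was dim: its group means ran from 4.25 in KO TER119+ to 5.36 in WT TER119- cells. The median gene of an array read 5.31 to 5.47. Glrx5, a mitochondrial glutaredoxin needed for iron-sulphur clusters, was higher by 2.36 in KO and 2.33 in WT, and Glrx3, a cytosolic one, was lower, at -2.14 in KO and -2.38 in WT.

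For NADPH, which both systems spend, 4 of the 5 genes listed were higher in each genotype: Taldo1, Tkt, Idh1 and Me1. Of these, Taldo1 and Tkt encode enzymes that do not form NADPH themselves. Idh1 was higher by 1.78 in KO and 1.83 in WT and Me1 by 1.82 in KO and 1.93 in WT, while Pgd, an enzyme of the pentose phosphate pathway, did not pass in either. Ccs, the copper chaperone that loads SOD1, differed by 0.37 in KO, where it did not pass, and by 0.72 in WT, where it did. Among the selenoprotein genes 5 of 10 were higher and 2 lower in KO and 4 higher and 2 lower in WT. Sephs2, which makes the selenium donor, was higher by 1.86 in KO and 1.61 in WT, whereas Pstk, a kinase needed to charge the selenocysteine transfer RNA, differed by -0.995 in KO and -0.967 in WT and was lower in both.

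**Figure D5:**
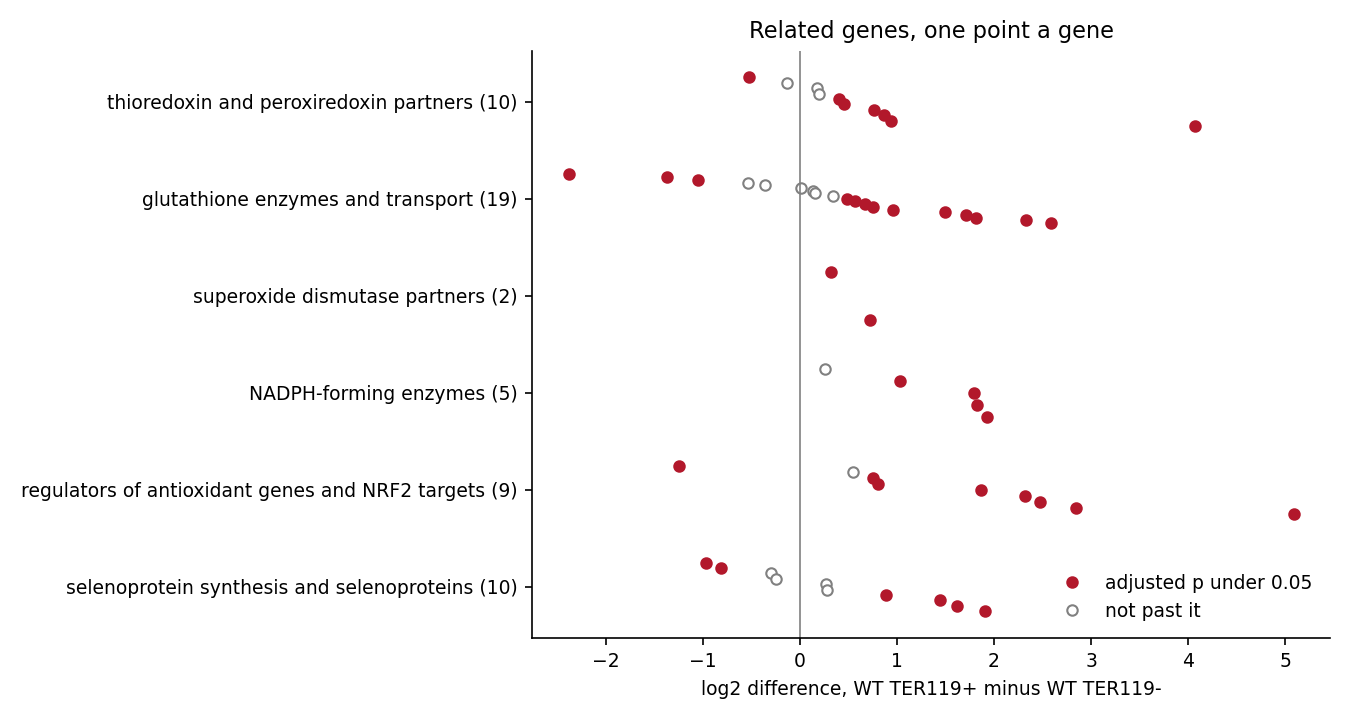
Difference in log2 expression, WT TER119+ minus WT TER119-, for the 55 measured partner genes by list, one point a gene, filled where the adjusted p was under 0.05 and open otherwise. Hmox1 at 5.09 and Txnrd2 at 4.07 lie farthest to the right, and Glrx3 at -2.38 farthest to the left.

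Between KO and WT, 1 of the 55 partner genes was called in each population, and it was Mgst3, which encodes a microsomal glutathione transferase with peroxidase activity. Of all genes 1.02% were called in TER119+ cells and 0.0853% in TER119- cells. In TER119+ cells Mgst3 averaged 9.91 ± 0.04 in KO and 9.14 ± 0.06 in WT (SD, n = 3 and 4), higher by 0.77 (SE 0.11, adjusted p = 0.000592). In TER119- cells it averaged 9.28 ± 0.17 in KO and 8.39 ± 0.16 in WT (n = 4 each), higher by 0.89 (SE 0.10, adjusted p = 0.000488). Fitted on the TER119- arrays alone, the second difference had the same size but an adjusted p of 0.0714. An unadjusted p under 0.05 was found for 3 of the 55 in TER119+ cells (5.45%), close to the 5.33% of all genes, and for 7 in TER119- cells (12.7%), against 7.56% of all genes. The interaction was called for 0 of the 55 by limma, against 0.436% of all genes. A single gene, Nqo1, an NRF2 target, had an unadjusted limma p under 0.05 there, with an estimate of -0.47 and an adjusted p of 0.999. The next smallest p was that of Txn2, the mitochondrial thioredoxin, at -0.28 (adjusted p = 0.999).

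The genes whose levels followed those of Gpx4 and Sod1 most closely over the 15 arrays were named by Pearson's correlation, as a description: the arrays fall into the same 2 populations, which set most of the correlation. For Gpx4, the member with the largest population difference in WT, they were Smdt1 (r = 0.994), Vrk2 (0.992) and Bcl2l1 (0.992). For Sod1, the member that was lower in TER119+ cells, they were Tbce (0.968), Dpy30 (0.967) and Eif3m (0.967).

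The first principal component of all genes held 84.6% of the variance and separated TER119+ from TER119- arrays. For TER119- arrays alone it held 54.2%, and 3 of them, KO replicate 4 with WT replicates 2 and 4, stood apart from the rest. Without those 3 arrays the differences between TER119+ and TER119- cells of WT were 2.03 for Cat, 0.90 for Sod2, 1.58 for Gpx1, 2.50 for Gpx4, 1.02 for Prdx2, 1.64 for Prdx3, 0.77 for Txnrd1 and -0.49 for Sod1, with the same calls. Prdx1 then passed as well, at 0.38 (adjusted p = 0.0465). WT TER119- was represented by replicates 1 and 3 only in this fit, and the spread was estimated over all groups. Mgst3 was called there between KO and WT TER119- cells, at 0.86 (adjusted p = 0.0233).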

How the data were processed

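The deposited values are log2 expression per probe set, which the authors made with RMA, per the submitters' processing notes, which also name Partek; no version is given in these sources. Nothing was renormalised. Of 35399 probe sets, 23410 are in the platform's gene table, 21789 with 1 symbol and 1621 with several, and 11989 are unnamed. Entrez IDs matched 21698 to RefSeq (GRCm38.p6). For 999 genes with several probe sets the one with the highest mean was kept, leaving 19938 genes.

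limma 3.58.1 in R 4.3.3 fitted 1 mean per group to all 15 arrays (11 residual degrees of freedom), with no covariate, and Benjamini-Hochberg adjustment at 0.05; the script was tested on simulated data. No detection calls were used. Same-numbered samples deviated together with r from -0.38 to 0.65 over 14 pairs. These correlations cannot settle whether any of them came from the same liver, and the main fit did not pair them. Inferred array sexes were 2 male and 2 female in WT TER119+ and 4 male in WT TER119-. Same-numbered WT arrays therefore do not all match in sex. Alternatives were other probe sets, filters, centring, covariates, single arrays left out and a replicate block.

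Members and lists were chosen with earlier results of these data known. Every measured member is named; partner genes were named as the up to 4 of smallest p per comparison and direction (the 2 of smallest p where none passed), and others in the text after their values were seen.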

Additional observations from a re-analysis of the deposited data

Results flagged for a closer look

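Hmox1, the haem oxygenase gene, had 1 array far from the rest of its group: WT TER119- replicate 3 read 6.0732, and the other 3 arrays of that group lay between 5.22 and 5.35. It was the only such case among 60 groups of 4 arrays tested over 20 genes, where chance gives about 1 in 20 groups. The same array had the highest macrophage marker mean of the TER119- arrays, 5.38, and its part in the Hmox1 value was not tested.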

How the results depend on the processing

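All 252 population differences recomputed for the 8 called members kept their direction and their call. Prdx1 passed the threshold in WT without WT TER119+ replicate 3 (0.33) and without the 3 arrays that stand apart (0.38), and in KO when only its arrays were fitted (0.26, adjusted p = 0.0437) or with the replicate number as a block (0.33, adjusted p = 0.0338). Without WT TER119+ replicate 4 the WT difference of Prdx1 was 0.124 (adjusted p = 0.411). The replicate block changed no other call of a member or of a partner gene named by the rule; it called 34 partner genes higher in WT TER119+ cells in place of 33.

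Called partner genes numbered 2 in place of 1 between KO and WT in TER119+ cells, and 0 in TER119- cells, when only the arrays compared were fitted. Leaving out single arrays gave 1 to 2 in TER119- cells, 2 without WT replicate 1.

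Of 1113 single-gene values 49 changed sign, 0 of them past the threshold in either fit, and the cause was not tested. KO minus WT in TER119+ cells: Prdx2 was 0.122 with the mean of its probe sets and 0.260 with the other probe set, an alternative chosen after seeing the data, and -0.0508 to 0.0396 with single arrays left out; Prdx3 was -0.00917 to 0.038. In TER119- cells Prdx2 was 0.110, 0.286 and -0.118 to 0.0174 in the same settings. Cat was -0.00178 without the arrays that stand apart, -0.0578 with the hepatocyte mean as covariate, and -0.0175 to 0.139 with single arrays left out. Txnrd1 was -0.00587 and -0.00574 in the first and second of these.

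For the interaction the other probe set gave -0.0151 for Prdx1 and -0.0257 for Prdx2. Median centring gave -0.00396 for Sod1, -0.0280 for Prdx1 and -0.00242 for Prdx2. Without the arrays that stand apart it was -0.0487 for Sod1, 0.154 for Sod2, 0.0799 for Gpx1, -0.0940 for Prdx1 and 0.121 for Txnrd1, and with the hepatocyte covariate -0.0580, 0.184, 0.0872, -0.127 and 0.137. Single arrays left out gave -0.0573 to 0.129 for Sod1, -0.245 to 0.0467 for Sod2, -0.0725 to 0.0613 for Gpx1, -0.0645 to 0.140 for Prdx1, -0.0327 to 0.105 for Prdx2 and -0.216 to 0.0623 for Txnrd1.

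Over all genes, 203 were called between KO and WT TER119+ cells, 350 when only those arrays were fitted; 17 were called in TER119- cells, and 4 when only those were fitted. The number of arrays limits the precision. No detection calls were available for dim genes, and the filter on dim genes left Slc7a11 without a value.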
